A study of Mus musculus with 6 samples.

Results

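CD4+ Foxp3+ regulatory T cells (Treg) sorted from mouse mesenteric lymph nodes were examined for transcripts that mark other blood cell lineages. The 34 genes are 9 B cell markers, 6 genes of the MHC class II pathway, 9 myeloid, 5 granulocyte and 2 erythroid markers, and 3 markers of CD8 or natural killer (NK) cells. They were taken by symbol from the annotation of the Affymetrix arrays, out of 18193 genes with a probe set of their own, and each was read on its probe set with the highest mean. 3 arrays hold induced Treg (iTreg) from TBmc mice with a Foxp3 GFP reporter on a BALB/c background, fed 1% ovalbumin for 1 week and gated as Nrp-. 3 arrays hold total Treg of unfed wild-type (WT) BALB/c mice with the same reporter. All animals were 4 to 6 weeks old. TBmc mice carry 1 rearranged T cell receptor and 1 rearranged B cell receptor and lack the recombinase that makes others, so their lymph nodes hold B cells, but of a single specificity. The groups thus differ at once in genotype, receptor repertoire, diet and gate, and the shares of these cannot be told apart.

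The labels of 2 arrays do not match their titles. The cell type label of WT replicate 1 carries the Nrp- gate, although it is titled as total Treg. iTreg replicate 1 has a strain label that gives BALB/c and leaves out TBmc. The markers whose groups do not overlap, and Ighm, are therefore also given without these arrays. The labels do not say whether the replicates came from separate mice.

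A B cell is known by its antigen receptor, of which Ighm encodes the heavy chain of IgM and Cd79a and Cd79b the signalling partners. B cells, dendritic cells and macrophages display peptides on MHC class II, and the coactivator Ciita switches the class II genes on through a shared promoter module. Resting mouse T cells make little class II. Granulocytes and monocytes are rich in the calcium-binding proteins S100a8 and S100a9, and red cell precursors in globin and in Alas2, which starts haem synthesis. A bulk array does not separate transcripts of the sorted cells from those of other cells among them, and fewer cells of a type and less RNA per cell cannot be told apart.

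The class II module contains an inverted CCAAT element, the Y box, searched here as CTGATTGG on either strand in the 150 bases before the transcription start. Promoters were matched for 3 of the 6 class II genes, and the element lay in those of H2-Aa and H2-Eb1. Both are shown because they encode chains of the class II molecules themselves, with signals that differed in pattern between them on the probe sets used. The match began 51 bases before the start in H2-Aa and 62 bases before it in H2-Eb1, and is printed in capitals. The sequences are from RefSeq on build GRCm38.p6, on the minus strand of chr17:34287824-34287973 for H2-Aa and the plus strand of chr17:34305717-34305866 for H2-Eb1.
H2-Aa: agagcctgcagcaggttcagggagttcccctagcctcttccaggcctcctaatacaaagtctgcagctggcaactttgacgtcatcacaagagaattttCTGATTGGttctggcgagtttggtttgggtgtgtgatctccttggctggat
H2-Eb1: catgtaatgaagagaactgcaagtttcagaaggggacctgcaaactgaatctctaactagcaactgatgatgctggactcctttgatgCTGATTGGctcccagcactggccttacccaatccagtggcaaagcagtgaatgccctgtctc
These letters occurred in 3.16% of 32851 promoter windows of that length, and in neither window of H2-DMa. A match in such a window is a description of the sequence and says nothing about its use in these cells.

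Few of the markers stood clear of background on every array. Background was taken from 27 control probe sets for bacterial genes that were not spiked in, whose highest signal on any of the 6 arrays was 28.5 units of the MAS5 scale. That signal was on WT replicate 2, and the highest controls of the other arrays were 10.8 to 17.7. The control range ends at 28.5 for every array, so a signal within it can exceed the controls of its own array. Above this limit on all 6 arrays were 5 of the 34 markers, or 14.7%, namely Ighm, H2-DMa, Hba-a2, Cd8a and Cd8b1. On no array above it were 12 markers, or 35.3%: Ms4a1, Pax5, Blk, Blnk, Cr2, Ciita, Itgax, Cd14, Camp, Ngp, Ltf and Ncr1. The other 17 exceeded it on some arrays. Of all 18193 genes, 43.0% exceeded the limit on all 6 arrays and 38.0% on none. Per array, 13, 15 and 12 of the markers exceeded the limit on iTreg replicates 1, 2 and 3, compared with 12, 8 and 10 on the WT arrays. The shares of all genes above the limit were 52.2%, 52.3% and 50.8% on the iTreg arrays and 54.0%, 53.7% and 50.1% on the WT arrays. The defining transcripts of the sorted cells were above it: of 15 T cell and Treg genes measured, 14 exceeded the limit on all 6 arrays, Cd3e with signals from 2865 to 6949 and Thy1 from 2817 to 6216. Cd4 (1497 to 3739) and Foxp3 are named for the sort, after their values were seen. Foxp3 was the exception, since its probe set lay between 9.16 and 54.6 and above the limit on 3 arrays.

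**Figure D1:**
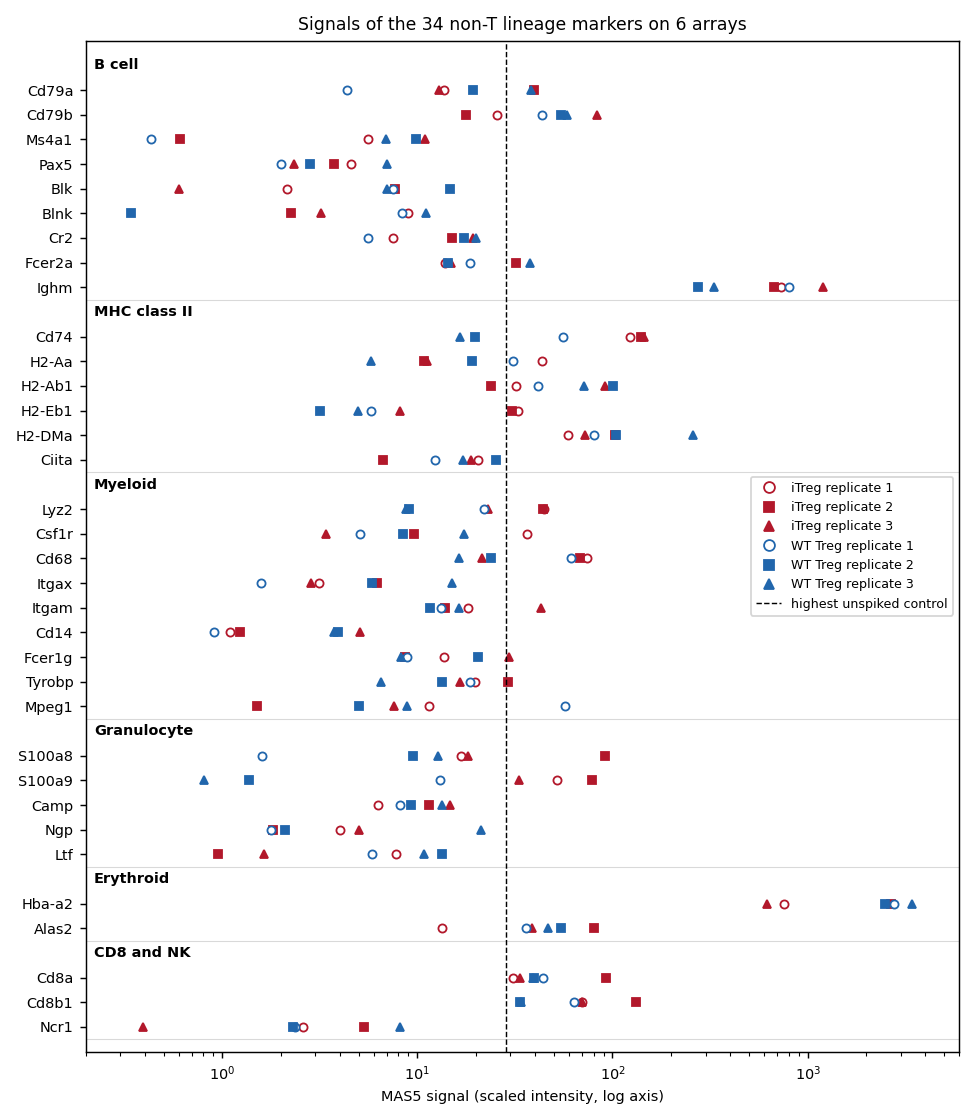
MAS5 signal of each of the 34 markers on each of the 6 arrays (log axis, in scaled intensity units), by marker class, with iTreg in red, WT Treg in blue and the arrays with label doubts as open circles. The dashed line is the highest unspiked control signal, 28.5; 5 markers lie to its right on all arrays and 12 on none.

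Among B cell markers, only Ighm exceeded the limit on all arrays, on probe sets whose names carry a suffix used for sets that match several transcripts or genes. Ighm had signals of 734, 672 and 1194 in iTreg against 805, 275 and 330 in WT Treg replicates 1, 2 and 3. The WT arrays thus parted, with replicate 1 among the iTreg values and the other two below all of them. The means were 867 ± 285 (SD, n = 3) in iTreg against 470 ± 291 (SD, n = 3) in WT Treg, and the difference in log2(signal + 16) was 0.97 with a standard error of 0.40 by limma (adjusted p = 0.622). Without WT replicate 1 it was 1.43 (limma adjusted p = 0.347), and without both arrays with label doubts 1.52 (limma adjusted p = 0.691). Of 11 probe sets for Ighm, 2 exceeded the control limit on all arrays, and the second of them had 398, 406 and 667 in iTreg against 629, 196 and 219 in WT Treg, the same order between WT arrays. The mean over all 11 probe sets differed by 0.33. The brightest probe set without a suffix stayed within the control range, from 2.49 to 20.98, with a difference of 0.25.

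The B cell receptor partners and the B cell transcription factor gave low signals. Cd79b, a signalling chain of the B cell receptor, had 25.6, 17.8 and 83.8 in iTreg against 43.3, 54.3 and 58.7 in WT Treg. Its iTreg arrays lay on both sides of the WT arrays. Cd79a, the other chain, was highest in iTreg replicate 2 at 39.7 and WT replicate 3 at 38.3, with the remaining arrays from 4.37 to 19.2. Fcer2a, the low-affinity IgE receptor CD23, exceeded the limit on the same arrays, at 32.04 and 38.0. Ms4a1, which encodes CD20, and Pax5, the factor that maintains B cell identity, reached at most 10.9 and 7.01. The complement receptor Cr2, the kinase Blk and the adaptor Blnk reached at most 20.04, 14.7 and 11.1. Thus 5 of the 9 B cell markers stayed within the control range on all arrays. The median difference over the 9 was -0.02, against -0.005 over all 18193 genes. The summed signal of the 9 markers, most of it from Ighm, ran from 791 to 1342 in iTreg and from 408 to 895 in WT Treg.

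Class II genes did not move as a block. Cd74, the invariant chain that escorts class II molecules to the endosome, had signals of 124, 140 and 144 in iTreg against 56.0, 19.8 and 16.6 in WT Treg. Every iTreg array was above every WT array, and 2 of the 3 WT arrays lay within the control range. The difference was 1.79 with a standard error of 0.42 by limma (adjusted p = 0.215), 2.15 without WT replicate 1 (limma adjusted p = 0.175) and 2.21 without both arrays with label doubts (limma adjusted p = 0.493). Its single probe set carries a name suffix used for sets that match several transcripts. H2-Eb1, the beta chain of I-E, had 32.7, 30.7 and 8.13 in iTreg against 5.78, 3.17 and 4.95 in WT Treg, again without overlap. Only iTreg replicates 1 and 2 exceeded the limit, and the gene was below the expression filter and was not tested. Its difference of 0.88 was 0.74 without both arrays with label doubts.

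The remaining class II genes went otherwise on the probe sets used. H2-DMa, which helps load peptides, had 58.9, 103 and 71.9 in iTreg against 80.8, 104 and 258 in WT Treg. The groups overlapped, and the difference of -0.67 (limma adjusted p = 0.780) became -0.23 without WT replicate 3. H2-Ab1, the beta chain of I-A, had 32.04, 24.0 and 91.3 in iTreg against 41.6, 100.3 and 71.1 in WT Treg. The groups overlapped, with a difference of -0.50 (limma adjusted p = 0.847). H2-Aa, the alpha chain of I-A, had 43.4, 10.9 and 11.1 in iTreg against 30.9, 19.05 and 5.75 in WT Treg on the probe set used. Another of its 4 probe sets had 25.0, 35.8 and 25.8 in iTreg against 11.9, 1.05 and 1.81 in WT Treg, without overlap. A further one had 13.4, 13.6 and 23.9 against 6.52, 4.85 and 1.86, also without overlap but within the control range. The 4 probe sets of H2-Aa thus gave differences of 0.09, 1.13, 0.68 and -0.002, and their mean differed by 0.48. Ciita reached at most 25.3 and was within the control range on all 6 arrays. On iTreg replicates 1 and 3 and WT replicate 1 it nevertheless exceeded the highest control of the same array. Of the 6 class II differences 3 were positive and 3 negative, with a median of -0.03. The summed signal of the 6 genes was 311 to 346 in iTreg against 227 to 373 in WT Treg.

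Myeloid markers lay near or within the control range. Lyz2, the lysozyme of macrophages and granulocytes, had 44.6, 44.2 and 23.1 in iTreg against 21.95, 9.01 and 8.79 in WT Treg. The groups did not overlap, but iTreg replicate 3 and WT replicate 1 nearly met. All 3 WT arrays were within the control range, so iTreg was at least 1.25-fold higher, as the geometric mean of its arrays over the control limit. iTreg replicate 3, at 23.1, was itself within the control range and was entered as read, so the bound rests on iTreg replicates 1 and 2. The difference on the log2 scale was 0.87 with a standard error of 0.35 by limma (adjusted p = 0.622), and 0.96 without both arrays with label doubts. Lyz2 entered the test through its iTreg mean alone. Cd68, a lysosomal protein of macrophages, had 74.4, 67.8 and 21.5 in iTreg against 61.4, 23.8 and 16.4 in WT Treg, with overlapping groups. Its difference of 0.50 (limma adjusted p = 0.847) ranged from 0.24 to 0.91 without single arrays.

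The other myeloid markers exceeded the limit on 1 array at most. Mpeg1, the pore-forming perforin-2, had 57.1 in WT replicate 1 and at most 11.4 on every other array. Itgam, the integrin CD11b, had 42.8 in iTreg replicate 3 and at most 18.1 elsewhere. Csf1r, the macrophage growth factor receptor, had 36.3 in iTreg replicate 1 and at most 17.4 elsewhere. Fcer1g and Tyrobp, adaptors of activating receptors, barely passed it, with 29.5 in iTreg replicate 3 and 29.3 in iTreg replicate 2. The dendritic cell integrin Itgax (CD11c) and the endotoxin co-receptor Cd14 reached at most 15.0 and 5.07. No myeloid marker was above the limit in WT replicates 2 and 3, against 3, 3 and 2 of the 9 in iTreg replicates 1, 2 and 3 and 2 in WT replicate 1. The median difference over the 9 was 0.20. The summed signal was 152 to 223 in iTreg against 101 to 189 in WT Treg.

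Of the granulocyte markers, S100a9 exceeded the limit on all iTreg arrays and S100a8 on 1, and Camp, Ngp and Ltf on none. S100a8 and S100a9 are the subunits of calprotectin, and neither passed the test. S100a9 had 51.8, 78.5 and 33.02 in iTreg against 13.1, 1.37 and 0.81 in WT Treg. All iTreg arrays exceeded the limit and no WT array did, which makes iTreg at least 1.79-fold higher. The difference on the log2 scale was 1.74 with a standard error of 0.38 by limma (adjusted p = 0.172), the smallest adjusted p of the 19 markers tested. S100a9, like S100a8, entered the test through its iTreg mean alone, so this rank is no support for a difference. Without both arrays with label doubts it was 1.99 (limma adjusted p = 0.452). The value of 1.74 ranged from 0.76 to 3.73 with pseudocounts of 64 and 1, since its WT signals lie so low. S100a8 had 16.8, 91.2 and 18.1 in iTreg against 1.59, 9.44 and 12.7 in WT Treg. Its groups did not overlap, but the limit was passed in iTreg replicate 2 alone. The bound of at least 1.06-fold rests on that array: the geometric mean of the other two, 17.4, is under the limit and gives no bound. The difference of 1.07 (limma adjusted p = 0.632) was 0.51 without that array and 1.16 without both arrays with label doubts. The neutrophil granule proteins Camp, Ngp and Ltf reached at most 14.6, 21.2 and 13.3. The summed signal of the 5 genes was 72.4 to 184 in iTreg against 30.5 to 59.0 in WT Treg.

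Alpha globin was the marker with the largest negative difference. Hba-a2 had signals of 758, 2674 and 621 in iTreg against 2761, 2505 and 3439 in WT Treg. iTreg replicates 1 and 3 were below all WT arrays, while iTreg replicate 2 was within their range. The means were 1351 ± 1148 (SD, n = 3) and 2902 ± 483 (SD, n = 3), and the difference was -1.40 with a standard error of 0.45 by limma (adjusted p = 0.5002). Without iTreg replicate 2 it was -2.04 (limma adjusted p = 0.106). Alas2, the first enzyme of haem synthesis in red cell precursors, had 13.4, 80.1 and 38.6 in iTreg against 36.1, 54.4 and 46.7 in WT Treg. The iTreg arrays surrounded the WT arrays, and the difference was -0.19 (limma adjusted p = 0.949). The beta globin gene Hbb-b2, from a further list of erythroid genes, had 37.6, 419 and 111 in iTreg against 37.8, 49.4 and 130 in WT Treg. Hba-a2, Alas2 and Hbb-b2 shared their highest iTreg array, replicate 2. In WT Treg, Hba-a2 and Hbb-b2 were highest in replicate 3. Hba-a1, named here after its values were seen, reached at most 7.86 on its own probe set, and alpha globin genes are near-identical copies whose probe sets can share transcripts.

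Both CD8 chains were above the limit on all arrays on the probe sets used. Cd8b1, the CD8 beta chain, had 69.6, 132 and 70.1 in iTreg against 63.3, 33.7 and 33.99 in WT Treg. Every iTreg array was above every WT array, WT replicate 1 coming closest, and the difference was 0.82 with a standard error of 0.41 by limma (adjusted p = 0.698), and 1.18 without both arrays with label doubts. Cd8a, the alpha chain, had 30.9, 93.0 and 33.5 in iTreg against 43.8, 39.8 and 39.2 in WT Treg. iTreg replicate 2 was the highest and the other two iTreg arrays the lowest. The difference of Cd8a was 0.15 (limma adjusted p = 0.955), and -0.24 without iTreg replicate 2. The other 4 of its 5 probe sets were within the control range on all arrays, and the mean of probe sets differed by -0.047. Ncr1, the NK cell receptor NKp46, reached at most 8.17. The summed signal of the 3 genes was 103 to 231 in iTreg against 75.8 to 110 in WT Treg.

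**Figure D2:**
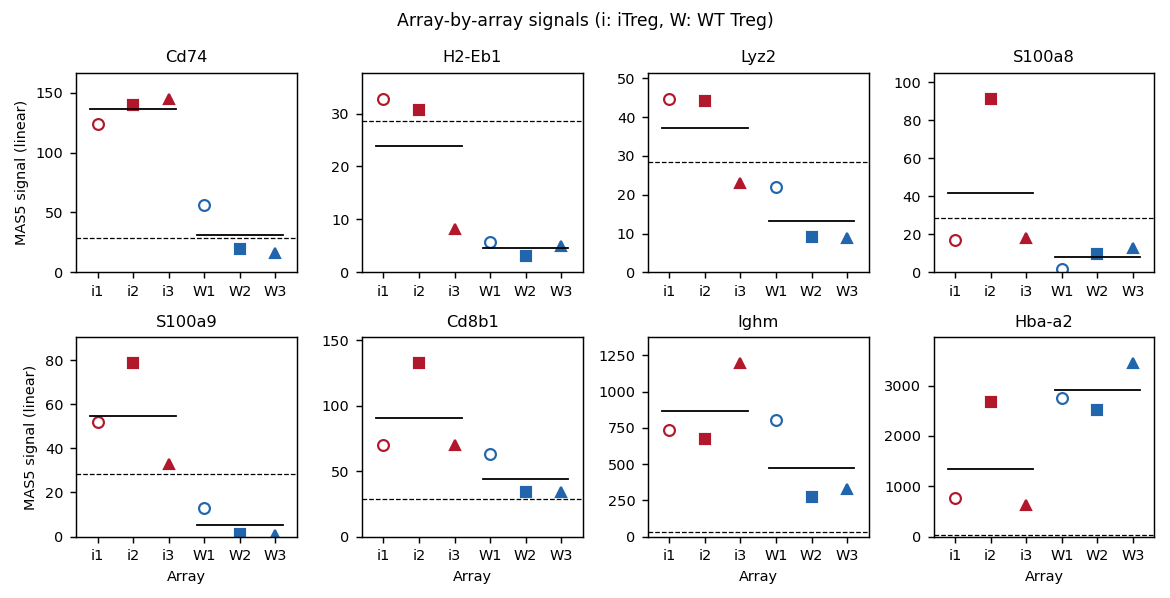
MAS5 signal on a linear axis in each array (i1 to i3, iTreg replicates; W1 to W3, WT Treg replicates) for the 6 markers whose groups did not overlap and for Ighm and Hba-a2. Bars are group means, the dashed line is the control limit of 28.5, and open circles are the arrays with label doubts. In 5 of the first 6 panels WT replicate 1 is the WT array nearest to iTreg.

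Across the whole set no marker passed the test between iTreg and WT Treg. Of the 34, 19 passed the filter on mean expression and were tested, and limma called 0 of them higher and 0 lower, where it called 0.0275% of all genes tested. At an unadjusted p under 0.05, 5 were higher in iTreg (Ighm, Cd74, Lyz2, S100a8 and S100a9), where 3.0% of all genes tested were higher at that level. Hba-a2 was lower at that level, as were 4.58% of all genes tested. Lyz2, S100a8 and S100a9, like Itgam and Tyrobp, passed the filter through iTreg alone, since their WT means lay under it, and Ciita through WT Treg alone. No share of the tested markers is therefore set against these percentages. Over all 34 markers, tested or not, 6 had their lowest iTreg signal above their highest WT signal, 17.6% against 5.14% of all genes: Cd74, H2-Eb1, Lyz2, S100a8, S100a9 and Cd8b1. None had all iTreg signals below all WT signals, against 6.58% of all genes. The markers were chosen with earlier results of these data known, so the gaps between these shares are no support for a difference. Without iTreg replicate 2, 4 markers were lower without overlap, 11.8% against 13.2% of all genes. The median difference over the 34 markers was -0.005, with 16 positive and 18 negative, against -0.005 over all 18193 genes. The count of 6 was 3 when probe sets with a suffix for several transcripts were left out, 11.1% of the 27 left against 4.85% of all such genes. Without both replicate 3 arrays, with 2 arrays per group, it was 12, 35.3% against 14.9% of all genes. Without both arrays with label doubts, also with 2 per group, it was 8, 23.5% against 16.3%. Fewer arrays separate more often, as the shares of all genes show. The gap between 12 and 8 was not tested.

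**Figure D3:**
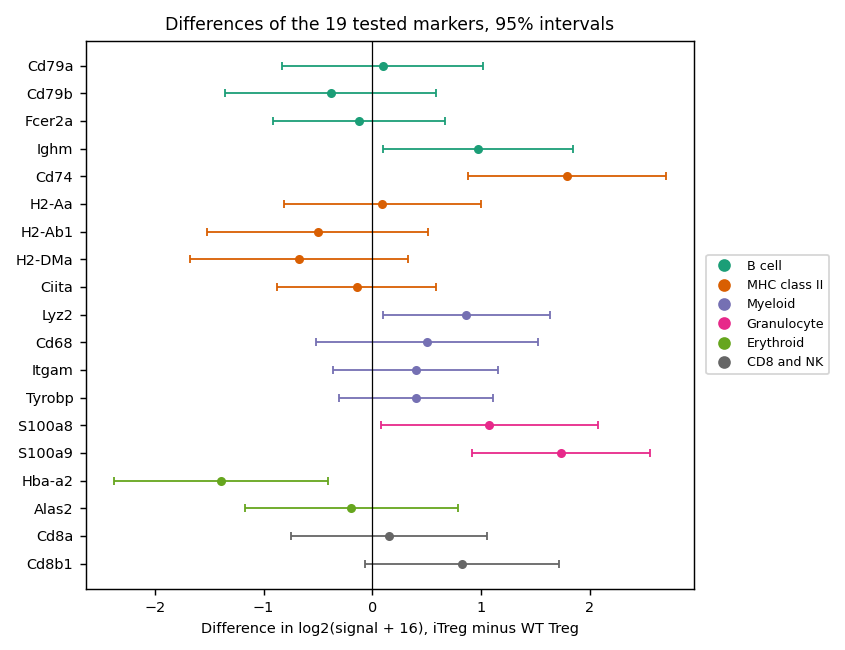
Difference in log2(signal + 16), iTreg minus WT Treg, for the 19 tested markers, coloured by class; bars are 95% confidence intervals from limma without adjustment for the number of genes. Cd74 (1.79) and S100a9 (1.74) lie farthest to the right and Hba-a2 (-1.40) farthest to the left.

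The WT arrays were unequal in these markers. Among the 6 genes without overlap, WT replicate 1 was the highest WT array for Cd74, H2-Eb1, Lyz2, S100a9 and Cd8b1, and the lowest for S100a8. Over all 34 markers it was the highest WT array for 11, or 32.4%, near its share of 30.9% of all genes, and WT replicate 3 led with 15, or 44.1%. Of the 22 markers above the limit on any array, WT replicate 1 was the highest for 11, or 50%, against 30.6% of the 11283 genes above the limit on any array. Ighm, Cd68 and Mpeg1 are among the 11, and Mpeg1 passed the limit on WT replicate 1 alone. The choice of the 22 thus used the same signals that are compared here. WT replicate 1 is the array whose label carries the Nrp- gate. Without both arrays with label doubts, 8 markers were higher in iTreg without overlap, 23.5% against 16.3% of all genes, and 2 lower, 5.88% against 17.7%. None was called. Of the iTreg arrays, replicate 2 was the highest for 13 of the 34 markers, 38.2% against 31.8% of all genes. Of the 22 above the limit on any array it was the highest for 10, 45.5% against 33.5% of the genes so chosen. Among them were S100a8, S100a9, Alas2, Cd8a and Cd8b1, of which S100a8 passed the limit on iTreg replicate 2 alone.

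Measures of RNA and array quality varied as well. Gapdh control signals from the 3′ end exceeded those from the 5′ end by 3.06, 2.48 and 3.38 (log2) in iTreg, and by 2.28, 2.53 and 2.34 in WT Treg. Replicate 3 of each group had the brightest spiked controls, with means of 10314 and 10454 against 6030 to 8028 on the other arrays. Median signals over all probe sets were 26.8, 27.5 and 24.3 in iTreg against 32.3, 31.7 and 21.1 in WT Treg. The part of these measures in the differences of the markers was not tested.

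Further genes of the same and other lineages were read in the same way, and limma called 0 of them. Of 14 other B cell genes, 6 were within the control range on all arrays and 2 above it on all; Pou2af1, a B cell coactivator, had 138, 107 and 83.5 in iTreg against 23.6, 39.9 and 94.99 in WT Treg, and Cd72, an inhibitory co-receptor, had 428, 417 and 160 against 210, 162 and 189. Of the 8 tested, 4 differences were positive and 4 negative. The 2 B cell genes of that list without overlap were both lower in iTreg and are named after their values were seen. Tnfrsf13c, the BAFF receptor, had 41.6, 38.9 and 3.68 in iTreg against 107, 122 and 159 in WT Treg (-1.86, limma adjusted p = 0.284), and the co-stimulatory receptor Cd40 differed by -0.52 (limma adjusted p = 0.791). All 5 plasma cell genes were within the control range on all arrays. Of 9 other class II pathway genes, 6 were above the limit on all arrays. Among them the protease Ctss had 2631 to 4135 and the class II modulator H2-Ob 863 to 1408, each with overlapping groups. The genes of that list without overlap are named after their values were seen. Rfx5 was higher, with 714, 440 and 409 in iTreg against 259, 251 and 266 in WT Treg (0.92, limma adjusted p = 0.532). Rfxank (-0.99, limma adjusted p = 0.721) and H2-Eb2 (-0.49, within the control range and not tested) were lower in iTreg. Of 19 other monocyte and macrophage genes, 12 were within the range on all arrays and 3 above it on all. These were Cebpb, a transcription factor, at 387, 238 and 211 in iTreg against 321, 123 and 50.9 in WT Treg, the chemokine receptor Ccr2 at 104 to 180, and Cybb, an oxidase subunit named after its values were seen, at 49.9, 29.9 and 126 in iTreg against 148, 101 and 148 in WT Treg. Cebpb differed by 0.96 (limma adjusted p = 0.717) and Cybb by -0.96 (limma adjusted p = 0.687). Of 9 dendritic cell genes, 6 were within the range, and 3 were above it on all arrays. These were the protease inhibitor Cst3 (321 to 1091, with overlapping groups), the factor Irf8, and Zbtb46, named after its values were seen. Zbtb46 had 35.0, 63.6 and 186 in iTreg against 84.6, 74.8 and 29.5 in WT Treg, with overlapping groups. Irf8 had 136, 206 and 155 in iTreg against 84.0, 114 and 130 in WT Treg, without overlap (0.53, limma adjusted p = 0.787).

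All 11 other granulocyte genes, 5 platelet genes and 5 mast cell and basophil genes were within the control range on all 6 arrays. Of 9 other erythroid genes 4 were, and Gata1 had signals of 147 to 249 with overlapping groups. Of 12 other NK and cytotoxic genes 6 were, while Eomes, a transcription factor of cytotoxic lymphocytes, had 248, 179 and 364 in iTreg against 99.8, 129 and 51.0 in WT Treg, a difference of 1.37 (limma adjusted p = 0.457). Prf1, which encodes perforin, had 257 to 486 with overlapping groups. Of 12 stromal, endothelial and epithelial genes, 7 were within the range. The endothelial adhesion molecule Pecam1 had 341 to 735, and the epithelial adhesion molecule Epcam had 23.1, 51.3 and 56.7 in iTreg against 78.9, 176 and 312 in WT Treg, without overlap and with a difference of -1.66 (limma adjusted p = 0.431). Also without overlap, and higher in iTreg, were Cd163, Clec7a, Mzb1, Chil3 and Hemgn, named after their values were seen and not tested. Of their signals only that of Cd163 in iTreg replicate 2, at 52.8, passed the limit.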

How the data were processed

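The 6 one-colour arrays were taken by title as 3 iTreg and 3 WT Treg samples. The deposited numbers are linear MAS5 intensities, 1 signal for each of 45101 probe sets, per the submitters' processing notes; every array had a 2% trimmed mean of 150.0, a common scale set before deposit. The version of MAS5 was not stated in the sources used here, and detection calls were not used. Probe sets with several gene symbols (932) or none (9160) were left out, and of 34945 with 1 symbol the brightest per gene was kept (18193 genes). Values were taken as log2(signal + 16), so that differences of low signals are understated. Genes at or above the 40th percentile of the mean (4.99) were tested, 10916 in all, with limma 3.58.1 in R 4.3.3 (lmFit, eBayes with intensity trend), Benjamini-Hochberg over all genes tested, threshold 0.05, two-sided; the code was tested on simulated data. Bounds compare the geometric mean signal of the brighter group, as read, with the control limit, used for any lower signal of the dimmer group. Promoters were matched for 23 of the 34 members. All 34 members are named, with each array's value for those above the limit on at least 3 arrays or without overlap, and of each further list the 2 brightest tested genes; other genes named are said to be chosen after their values were seen. The members and all lists were chosen with earlier results of these data known. The number of arrays limits the precision, and p-values measure only the spread between them, which may be technical.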

Additional observations from a re-analysis of the deposited data

How the results depend on the processing

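No marker was called under any alternative run. The lowest adjusted p was 0.0923, for S100a9 with median scaling. Of the alternative values of single tested markers, 320 kept their direction and 16 turned direction, for which the cause was not tested. None crossed the threshold. Some of these values had no test, since the marker fell below the filter in that run, such as S100a8 and S100a9 with a pseudocount of 1. Without single arrays the ranges were -0.27 to 0.44 (Cd79a), -0.34 to 0.13 (Fcer2a), -0.29 to 0.35 (H2-Aa), -0.27 to 0.074 (Ciita), -0.61 to 0.24 (Alas2) and -0.24 to 0.37 (Cd8a). Cd8a was -0.047 as the mean of probe sets. Without both arrays with label doubts Cd79a was -0.13, H2-Aa -0.033 and Alas2 0.12, and without both replicate 3 arrays, a choice made after seeing the data, Fcer2a was 0.22 and H2-Aa -0.022.

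Over all genes limma called 3. It called 0 with a pseudocount of 1, with no filter, without both arrays with label doubts or without both replicate 3 arrays, 8 with median scaling and 0 to 1 without single arrays. Markers higher without overlap numbered 3 with probe sets without a name suffix, 11.1% against 4.85% of all such genes. Without both replicate 3 arrays they numbered 12, 35.3% against 14.9% of all genes. Markers lower without overlap numbered 2 without either pair of arrays, or 5.88%. Of all genes 17.7% were lower without the arrays with label doubts and 18.5% without both replicate 3 arrays. Without single arrays the lower markers numbered 0 to 4, or 0% to 11.8%, against 10.9% to 13.2% of all genes. The counts of markers higher and lower without overlap were added after seeing the data. Markers above the limit on all arrays numbered 11 with the controls' 95th percentile as the limit. They numbered 7 with the limit of each array by itself and 3 with probe sets without a name suffix. The median of the tested myeloid markers, 0.45, was 0.75 and 0.23 with pseudocounts of 1 and 64, 0.20 with no filter and 0.35 to 0.71 without single arrays. That of the tested granulocyte markers, 1.40, was 2.93 and 0.63 with those pseudocounts and 0.020 with no filter, which lets in Camp, Ngp and Ltf. The value of 1.40 rests on S100a8 and S100a9, which passed the filter through iTreg alone, as did Lyz2, Itgam and Tyrobp among the myeloid markers. With a 60th percentile filter the B cell median was 0.97 and the class II median -0.67, each from fewer genes, and without both replicate 3 arrays the B cell median was 0.39.

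With the replicate number as a block (replicate block) 0 markers were called, with a lowest adjusted p of 0.133. Deviations of same-numbered arrays correlated at 0.17, 0.046 and 0.13, and those of differently numbered arrays from -0.17 to 0.053. Whether the replicate numbers pair the arrays was not tested.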
